A study of Homo sapiens with 4 samples.

Results

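The clustered protocadherin genes are 54 of the 62696 genes in the expression tables. They were chosen by symbol alone, as every gene named PCDHA or PCDHAC with a number (alpha cluster, 16 genes), PCDHB with a number (beta cluster, 16 genes) or PCDHGA, PCDHGB or PCDHGC with a number (gamma cluster, 22 genes). All lie on the plus strand of chromosome 5q31 in GENCODE 29 (GRCh38), with the alpha cluster at chr5:140786136-141012347, the beta cluster at chr5:141051135-141249365 and the gamma cluster at chr5:141330571-141512981. PCDHA14 is annotated there as a transcribed unprocessed pseudogene and the other 53 genes as protein-coding.

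The RNA came from OVCAR3, an established line of human high-grade serous ovarian cancer cells, grown in RPMI medium with fetal bovine serum. Total RNA was sequenced after removal of ribosomal RNA in 3 libraries of a derivative carrying a short hairpin RNA against the pseudogene transcript ANAPC1P2 (KD, labelled as sets and called KD 1, KD 2 and KD 3 here) and in 1 library of wild-type OVCAR3 cells (WT). The labels do not say whether the 3 sets were separate cultures, hairpins or clones, so p-values measure only the spread between libraries and this spread may be technical. No library is labelled as a non-targeting hairpin control, so carrying a hairpin and losing ANAPC1P2 cannot be told apart. The comparison asks which transcripts differ between the knockdown derivative and its parent line.

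Clustered protocadherins are cell-surface adhesion proteins with extracellular cadherin repeats, best known from neurons, where each cell expresses its own combination of isoforms and recognises cells with the same combination. In the alpha and gamma clusters, each gene has its own promoter and a large variable exon that encodes the extracellular and transmembrane parts, and this exon is spliced to 3 constant exons shared by the whole cluster. Beta genes have a single coding exon and no constant exons. Promoter choice depends on the DNA-binding protein CTCF and on the cohesin complex, which loop distant enhancers to the promoters, and on DNA methylation, which silences unused promoters. The C-type genes (PCDHAC1, PCDHAC2, PCDHGC3, PCDHGC4 and PCDHGC5) lie next to the constant exons and are regulated apart from the others.

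The first shared exon is printed for each constant region, because reads in these exons cannot be given to a single member. Both exons are coding and 59 bases long, at chr5:140978949-140979007 (alpha) and chr5:141494807-141494865 (gamma) in GENCODE 29.
alpha first shared exon: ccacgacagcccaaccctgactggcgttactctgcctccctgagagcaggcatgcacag
gamma first shared exon: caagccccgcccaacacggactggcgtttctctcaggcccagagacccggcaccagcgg
The alpha exon belongs to 15 of the 16 alpha genes and the gamma exon to all 22 gamma genes, and the 2 exons have the same base at 39 of 59 positions (66.1%). A second shared exon of 89 bases and a last one of 2718 bases (alpha) or 2033 bases (gamma) follow. In the tables, PCDHA1 had 0 reads in all 4 libraries and PCDHGA3 had 0 in WT, although other genes with the same constant exons had reads, so shared-exon reads were not credited to every member. The bases that no other annotated gene shares on the strand made up 43.4 to 78.7% of the exonic bases of alpha genes other than PCDHA14, 35.6 to 72.4% of gamma genes and 90.6 to 100% of beta genes. PCDHA14 has no such base.

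Variable exons also resemble each other. In PCDHB8, 25.6% of the 100-base windows of unshared exonic sequence also occur in another protocadherin, mostly in PCDHB13, and in PCDHB10 23.5% do, mostly in PCDHB9. PCDHA7 shares 18% of its windows, mostly with PCDHA9, and PCDHGB4 shares 16.7%. Values of these genes are uncertain for that reason, whereas PCDHGC3 and PCDHA4 share no window.

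Of the 54 genes, 47 have a promoter in the RefSeq table (GRCh38.p14, 250 bases before to 50 after the start). Promoters are shown for the alpha gene with the most reads, for a beta gene with and a beta gene without a 10-base motif described here, for a gamma gene that fell and for PCDHGC3, which was not called. Capitals mark CGCT and its reverse complement AGCG, or, in PCDHB13, the 10-base motif that contains CGCT.
PCDHA4, chr5:140806818-140807117, plus strand: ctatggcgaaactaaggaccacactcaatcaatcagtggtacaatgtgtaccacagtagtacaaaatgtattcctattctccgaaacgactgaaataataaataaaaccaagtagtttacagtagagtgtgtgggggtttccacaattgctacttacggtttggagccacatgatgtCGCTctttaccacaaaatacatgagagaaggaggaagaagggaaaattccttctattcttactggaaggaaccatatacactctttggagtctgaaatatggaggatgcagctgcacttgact
PCDHB13, chr5:141213669-141213968, plus strand: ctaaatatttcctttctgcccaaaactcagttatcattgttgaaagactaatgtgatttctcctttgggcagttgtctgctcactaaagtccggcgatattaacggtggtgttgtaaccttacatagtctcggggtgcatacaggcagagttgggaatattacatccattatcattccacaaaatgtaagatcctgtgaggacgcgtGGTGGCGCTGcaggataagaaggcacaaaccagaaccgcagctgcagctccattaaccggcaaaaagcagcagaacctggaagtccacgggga
PCDHB14, chr5:141223093-141223392, plus strand: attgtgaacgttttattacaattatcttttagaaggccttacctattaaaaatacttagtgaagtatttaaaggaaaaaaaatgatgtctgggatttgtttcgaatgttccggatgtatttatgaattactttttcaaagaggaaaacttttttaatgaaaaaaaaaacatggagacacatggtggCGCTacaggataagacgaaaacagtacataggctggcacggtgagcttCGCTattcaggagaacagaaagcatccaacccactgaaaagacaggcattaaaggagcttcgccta
PCDHGB2, chr5:141359886-141360185, plus strand: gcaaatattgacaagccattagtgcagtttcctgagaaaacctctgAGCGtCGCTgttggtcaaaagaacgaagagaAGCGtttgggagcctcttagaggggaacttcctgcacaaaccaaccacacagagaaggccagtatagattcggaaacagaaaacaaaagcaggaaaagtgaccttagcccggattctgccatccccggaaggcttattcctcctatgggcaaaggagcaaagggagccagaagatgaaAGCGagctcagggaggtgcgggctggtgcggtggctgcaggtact
PCDHGC3, chr5:141475716-141476015, plus strand: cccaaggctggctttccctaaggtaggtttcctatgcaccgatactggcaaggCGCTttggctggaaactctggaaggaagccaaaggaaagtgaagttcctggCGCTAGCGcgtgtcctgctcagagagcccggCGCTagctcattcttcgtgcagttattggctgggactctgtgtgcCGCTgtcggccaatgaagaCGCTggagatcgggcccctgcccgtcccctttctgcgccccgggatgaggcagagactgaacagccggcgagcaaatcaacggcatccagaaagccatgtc
CGCT is the core of the element conserved among protocadherin promoters. It occurred on either strand in 46 of the 47 promoters (97.9%, all but that of PCDHA9), against 70.008% of the 35116 promoters in the table. The 10-base stretch shared by the largest number of these promoters was GGTGGCGCTG (12 of 47, 25.5%), which was picked by searching them. It stood in 12 of 14 beta promoters, 2 to 84 bases before the start, in 0 of 13 alpha and 0 of 20 gamma promoters, and in 0.276% of all promoters on either strand. A match is a description of the letters and says nothing of binding in these cells.

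The 4 libraries held 48443589, 56216398 and 42871815 counted reads in KD 1, KD 2 and KD 3 and 27868718 in WT. Reads were found in 31014 to 32823 genes in the knockdown libraries and in 36832 in WT, which stood apart in breadth. HBB, the beta-globin gene, had 0 normalized counts in the knockdown libraries and 12412 in WT. Whether the wild-type library also holds RNA of other cells was not tested, and every wild-type value and fold below carries that limit. Across genes, the log2 values of any 2 knockdown libraries correlated with a Pearson's r of 0.981 to 0.985, and those of a knockdown library and WT with 0.928 to 0.943. The targeted transcript ANAPC1P2 had 0, 11 and 8 reads in KD 1, KD 2 and KD 3 and 14 in WT, so its loss is not resolved at this depth. Values below are deposited normalized counts, that is, reads divided by 1 factor per library, and WT has no replicate. Most low counts were even, including 133 of the 162 member values above 0 (82.1%), as when both mates of a pair are counted. Intervals therefore rest on read pairs, and they and the floor of 3 read pairs (1.85 normalized counts over the knockdown group, 6.66 in WT) cover counting error only.

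Clustered protocadherin RNA was lower in the knockdown derivative in all 3 clusters, to unequal extents. Alpha genes summed to 36.0, 25.6 and 21.1 normalized counts in KD 1, KD 2 and KD 3, against 450 in WT. Beta genes summed to 69.2, 49.7 and 74.5 in knockdown, against 464 in WT. Gamma genes summed to 867, 1020 and 1037 in knockdown, against 1787 in WT. In each cluster all 3 knockdown sums lay below the wild-type sum and the groups did not overlap. The sums were 16.3-fold lower in knockdown for alpha (95% exact interval 11.7 to 22.9), 7.2-fold lower for beta (5.79 to 9.44) and 1.83-fold lower for gamma (1.68 to 2.00). In these bulk samples, fewer cells of a type and less RNA per cell cannot be told apart.

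**Figure D1:**
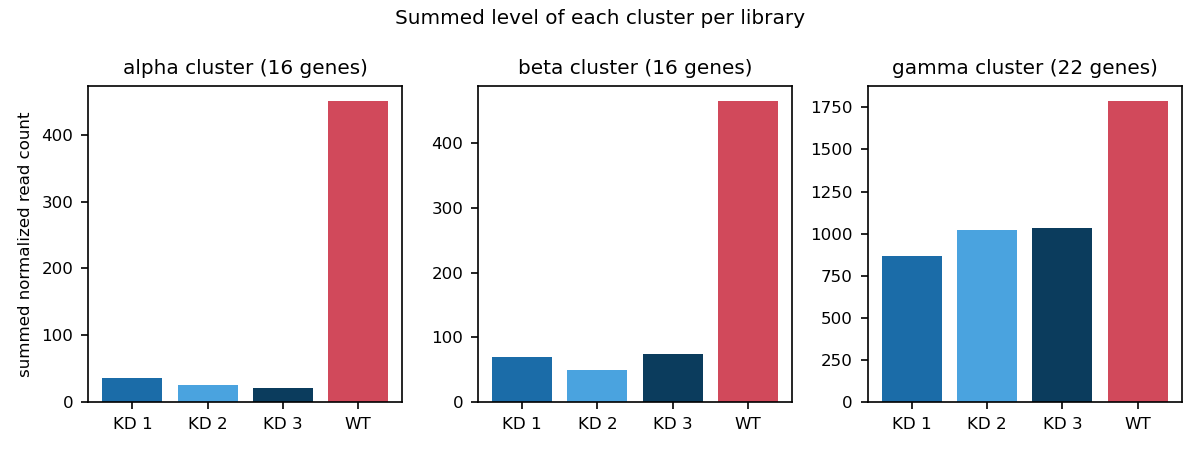
Summed normalized read counts (y axis, linear from 0) of the alpha, beta and gamma genes in each library (x axis, KD 1 to 3 and WT), with a separate y scale for each cluster. The alpha bars are 36.0, 25.6 and 21.1 in knockdown and 450 in WT, while the gamma bars are 867 to 1037 in knockdown and 1787 in WT.

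Fewer members had any read in knockdown despite the deeper libraries. Reads were found for 37, 37 and 38 of the 54 genes in KD 1, KD 2 and KD 3, against 50 in WT. Over all genes the numbers were also lower, at 31014 to 32823 in the knockdown libraries and 36832 in WT. In the alpha cluster 5, 4 and 4 of 16 genes had reads in knockdown, against 13 in WT. In the beta cluster the numbers were 10, 11 and 13 of 16 in knockdown and 16 in WT, and in the gamma cluster 22, 22 and 21 of 22 in knockdown and 21 in WT. All 3 knockdown values lay below the wild-type value for 46 genes (13 alpha, 15 beta, 18 gamma), above it for PCDHGA2 alone, and the groups overlapped or were both at 0 for 7 genes. Among all genes with a read in any library, 54.4% had all 3 knockdown values below WT, and among all tested genes 52.2% did.

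**Figure D2:**
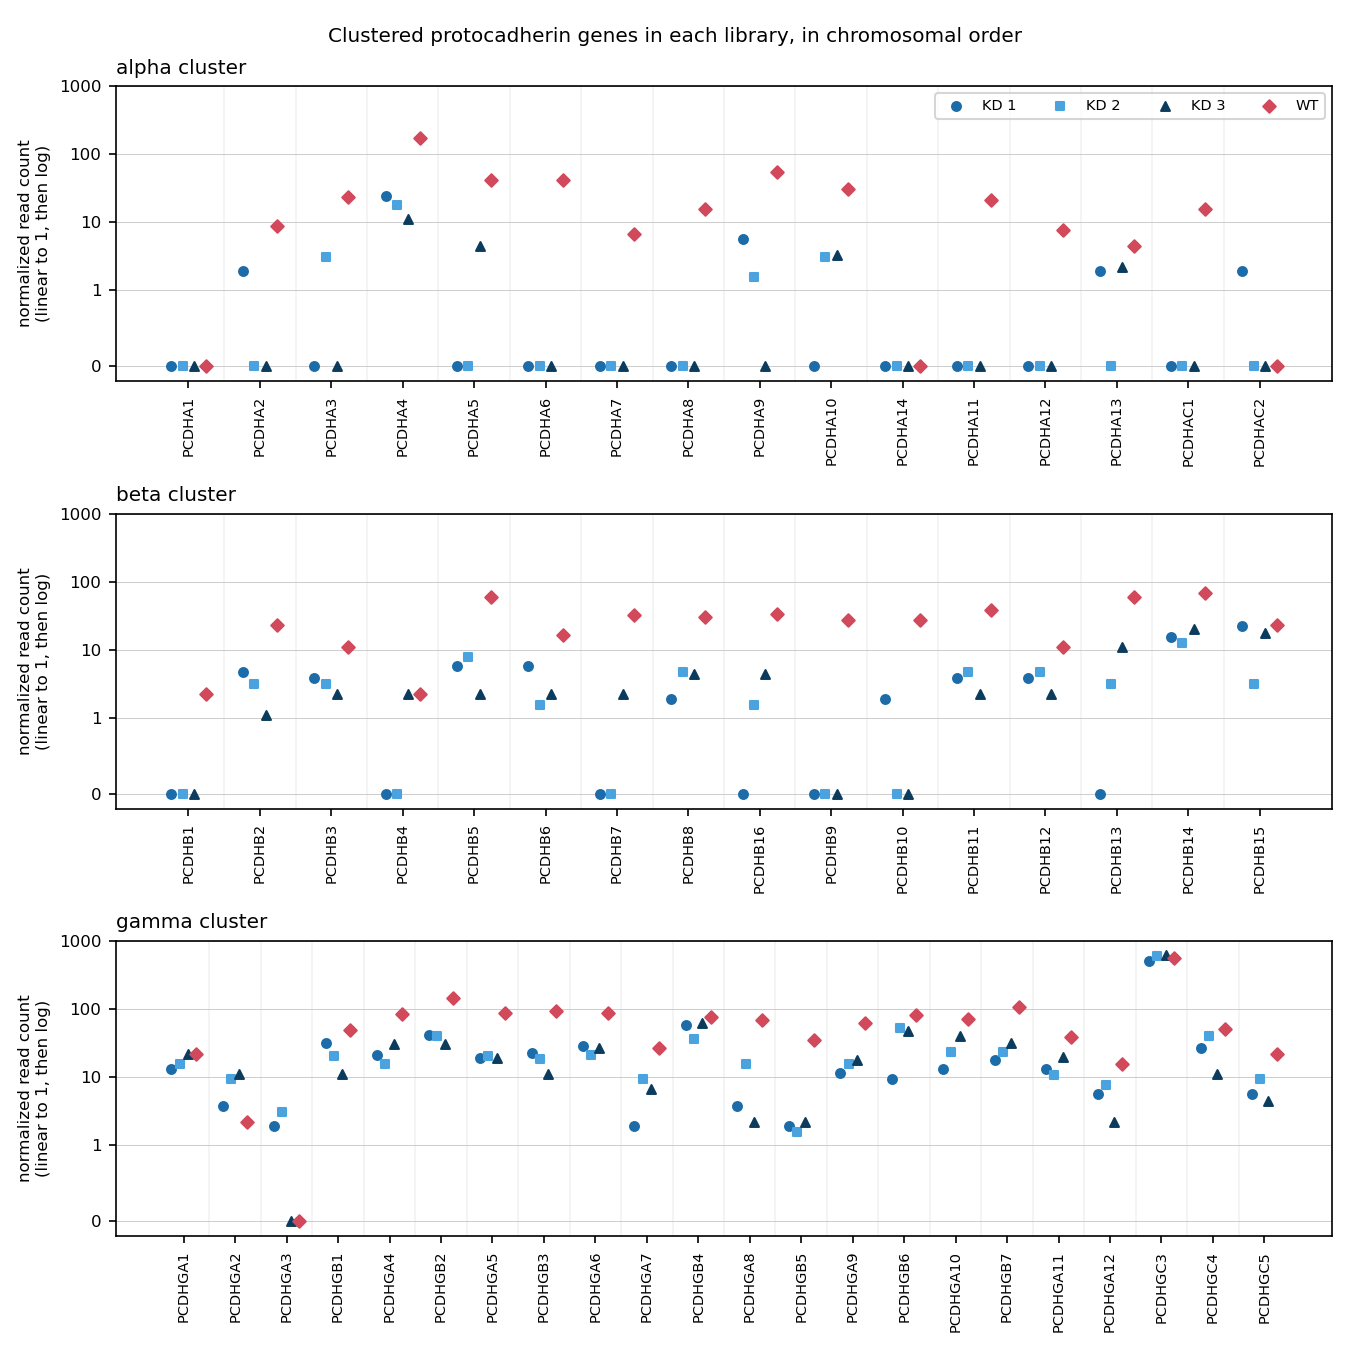
Normalized read count (y axis, linear up to 1 and logarithmic above) of each of the 54 genes (x axis, in chromosomal order) in KD 1, KD 2, KD 3 and WT, 1 panel per cluster. Wild-type diamonds lie above the knockdown points for 46 genes, and PCDHGC3 is the gene at 514 to 625 in knockdown and 558 in WT.

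The test across all genes (limma-trend on log2(normalized count + 1), two-sided, Benjamini-Hochberg adjustment over 23344 genes with a mean of at least 10 over the 4 libraries, threshold 0.05) included 29 members and left 25 under the filter (12 alpha, 10 beta, 3 gamma). It takes the spread from the knockdown libraries and assumes that the lone wild-type library varies like them. Of the 29, 18 fell, 0 rose and 11 were not called, and 0 rose at an unadjusted p under 0.05 or in edgeR or DESeq2. In the same test 36.3% of all genes fell and 31.4% rose. Among the 9886 tested genes with a mean of 10 to 100, the range of 28 of the 29 members, 49.5% fell and 6.33% rose, and 18 of these 28 members fell. The median log2 difference was -2.08 for the 28 members and -1.61 for all genes of that range. All 3 knockdown values lay below WT for 27 of the 28 members and for 75.8% of all genes of that range. Of the tested members, 11 had a knockdown mean under 10 and passed the filter through WT, so these had to differ. Of the 18 with a knockdown mean of at least 10, 9 fell. Members nearest the filter were PCDHB16 with a mean of 9.83 and PCDHA10 with 9.39 (not tested), and PCDHB8 with 10.25 and PCDHGB5 with 10.3 (tested).

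**Figure D3:**
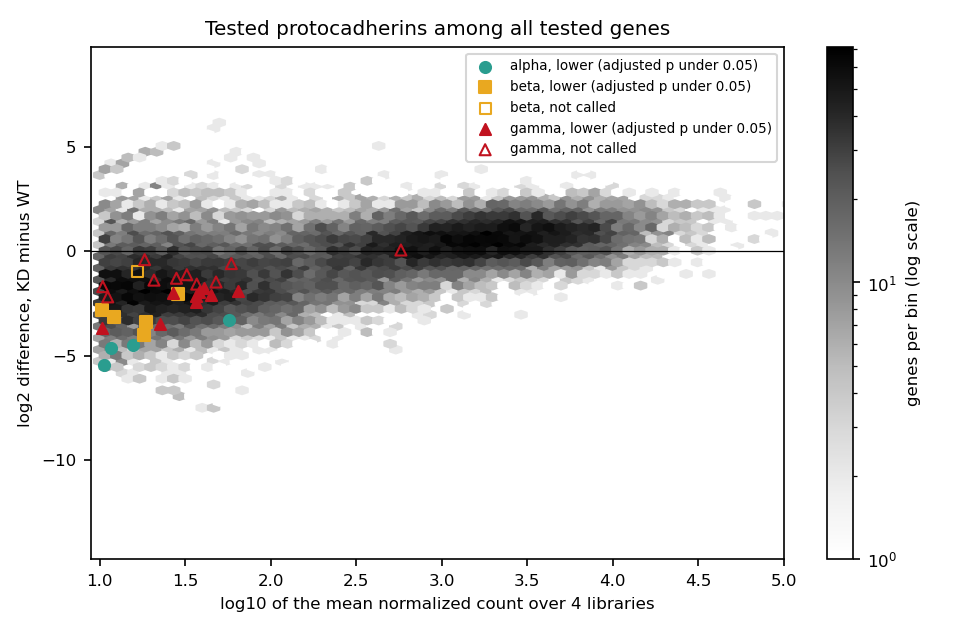
Log2 difference between knockdown and WT (y axis) against the log10 mean normalized count (x axis) for the 23344 tested genes (grey bins, darker for more genes) and the 29 tested protocadherins (coloured, filled where adjusted p is under 0.05). Of the 29 members, 28 lie among the low genes, where most grey bins are also below 0, and PCDHGC3 lies apart at a higher level with a difference of 0.06.

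In the alpha cluster, whose isoforms are adhesion receptors with a common intracellular domain, all 4 tested genes fell, of which PCDHA5, PCDHA6 and PCDHA9 had knockdown means under 10 and passed the filter through WT. Only PCDHA4 passed it with a knockdown mean of at least 10, so the count says little beyond that gene. Of all genes with a mean of 10 to 100, 49.5% fell. PCDHA4 (chr5:140806929-141012344) had the most alpha reads in both groups, with 24.6, 17.9 and 11.1 normalized counts in KD 1, KD 2 and KD 3, against 175 in WT. It was 9.64-fold lower in knockdown (interval 6.34 to 15.6), with a log2 difference of -3.29 (SE 0.54, limma adjusted p = 0.00233). Without PCDHA4, 31 reads were left for the other 15 alpha genes in the 3 knockdown libraries together.

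PCDHA9 had 5.69, 1.55 and 0 normalized counts in knockdown, against 55.5 in WT (log2 difference -4.46, SE 1.12, limma adjusted p = 0.0128). PCDHA5 had 0, 0 and 4.45 in knockdown, against 42.2 in WT (-4.62, SE 1.18, limma adjusted p = 0.0136). PCDHA6 had no read in any knockdown library, against 38 reads or 42.2 normalized counts in WT, which is at least 22.8-fold lower over the group (limma adjusted p = 0.00169). For each of these genes the groups did not overlap. The calls of PCDHA9 and PCDHA5 rest on few reads: the limma adjusted p was 0.0633 and 0.0586 without KD 2 and 0.113 and 0.111 without the filter, and PCDHA5 was also not called by DESeq2 (adjusted p = 0.347).

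The other 12 alpha genes were under the filter. Of these, 9 had all knockdown values below WT, as did 54.4% of all genes with a read in any library, tested or not. Among the 9 were PCDHA8, PCDHA11 and PCDHA12 with 0 reads in knockdown and 15.5, 21.1 and 7.77 normalized counts in WT. This is at least 8.4-fold, 11.4-fold and 4.2-fold lower over the group. The C-type gene PCDHAC1 had 0 reads in knockdown and 14 in WT, at least 8.4-fold lower. PCDHAC2, the other C-type alpha gene, had 2, 0 and 0 reads in knockdown and 0 in WT, so no difference was detectable. PCDHA1 and PCDHA14 had no read in any library.

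In the beta cluster, whose proteins lack the common intracellular domain, 5 of 6 tested genes fell. Of all genes with a mean of 10 to 100, 49.5% fell. Of the 5 beta genes that fell, PCDHB5, PCDHB8, PCDHB11 and PCDHB13 passed the filter through WT, with knockdown means under 10. Of the 2 tested beta genes with a knockdown mean of at least 10, PCDHB14 fell and PCDHB15 was not called. PCDHB14 had 15.2, 12.4 and 20 normalized counts in knockdown, against 67.8 in WT (log2 difference -2.05, SE 0.51, limma adjusted p = 0.0117). PCDHB5 had 5.69, 7.77 and 2.22 in knockdown, against 58.9 in WT (-3.38, SE 0.76, limma adjusted p = 0.00835). PCDHB11 had 3.79, 4.66 and 2.22 in knockdown, against 37.8 in WT (-3.13, SE 0.70, limma adjusted p = 0.00791). In these 3 genes every knockdown library was below WT and the groups did not overlap.

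PCDHB13 spread more, with 0, 3.11 and 11.1 normalized counts in knockdown, against 58.9 in WT (log2 difference -4.02, SE 1.33, limma adjusted p = 0.034), and its adjusted p was 0.121 without KD 2 and 0.0563 with a pseudocount of 0.5. Without the filter, PCDHB5 and PCDHB13 had limma adjusted p-values of 0.0686 and 0.203. PCDHB8, which shares windows with PCDHB13, had 1.90, 4.66 and 4.45 in knockdown, against 30.0 in WT (-2.79, limma adjusted p = 0.0152, and 0.058 without the filter or 0.0536 in DESeq2). PCDHB15 was not called: it had 22.7, 3.11 and 17.8 in knockdown, against 23.3 in WT (-0.99, SE 1.04, limma adjusted p = 0.417). KD 1 and KD 3 were near the wild-type value of PCDHB15 and KD 2 was low. Among the 10 beta genes under the filter, 9 had all knockdown values below WT. The share was 54.4% among all genes with a read in any library, tested or not. PCDHB9 had 0 reads in knockdown and 27.8 normalized counts in WT, at least 15.0-fold lower, and PCDHB4 had 0, 0 and 2.22 in knockdown and 2.22 in WT.

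The gamma cluster held more reads than the other clusters in every library. Of its 19 tested genes, 9 fell (47.4%) and 10 were not called, a share near the 49.5% of all genes with a mean of 10 to 100. PCDHGA7, PCDHGA8, PCDHGB5 and PCDHGC5 passed the filter through WT, and 7 of the other 15 fell. The A-type genes (12, of which 9 were tested) gave 5 falls and summed to 136, 167 and 199 normalized counts in knockdown, against 568 in WT. The B-type genes (7, all tested) gave 4 falls and summed to 185, 193 and 198 in knockdown, against 589 in WT. The C-type genes (3, all tested) gave no call and summed to 546, 661 and 640 in knockdown, against 631 in WT. The sums of A-type and B-type genes were 3.39-fold (2.86 to 4.07) and 3.07-fold (2.60 to 3.64) lower in knockdown, with no overlap between groups, and that of C-type genes was 1.02-fold lower (0.892 to 1.17), with knockdown libraries on both sides of WT. On the log2 scale the A-type and B-type ratios were -1.76 and -1.62. The median difference of all genes with a mean of 10 to 100 was -1.61. The C-type sum is mostly PCDHGC3, which has a higher level, and whether gene type or level matters was not tested.

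PCDHGB2 had the most B-type reads in WT, and had 41.7, 40.4 and 31.1 normalized counts in knockdown, against 144 in WT (log2 difference -1.92, SE 0.37, limma adjusted p = 0.00431). PCDHGB7 had 18, 23.3 and 32.2 in knockdown, against 106 in WT (-2.10, SE 0.47, limma adjusted p = 0.00843). PCDHGA6 had 28.4, 21.0 and 26.7 in knockdown, against 86.6 in WT (-1.74, SE 0.42, limma adjusted p = 0.0111). In all 3 genes the knockdown libraries lay close together, well under WT.

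The other gamma genes that fell were PCDHGA4, PCDHGA5, PCDHGA8, PCDHGA9, PCDHGB3 and PCDHGB5. PCDHGB5 had the largest log2 difference of the cluster, with 1.90, 1.55 and 2.22 normalized counts in knockdown, against 35.5 in WT (-3.67, SE 0.71, limma adjusted p = 0.00443). PCDHGA5 had 19.0, 20.2 and 18.9 in knockdown, against 87.7 in WT (-2.13, SE 0.43, limma adjusted p = 0.00533). PCDHGA8 was uneven, with 3.79, 15.5 and 2.22 in knockdown, against 68.9 in WT, and its limma adjusted p of 0.0197 became 0.0618 without KD 1 and 0.0524 without KD 3. PCDHGA4 had 20.9, 15.5 and 31.1 in knockdown, against 85.5 in WT, and its adjusted p of 0.0161 became 0.0539 without KD 1. Without the filter, which adds genes of fewer reads to the adjustment, PCDHGB7, PCDHGB3, PCDHGA4 and PCDHGA8 were not called (limma adjusted p = 0.0537, 0.0611, 0.0829 and 0.144).

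Among the gamma genes not called, PCDHGB4 had 58.8, 36.5 and 62.3 normalized counts in knockdown, against 77.7 in WT (log2 difference -0.59, SE 0.42, limma adjusted p = 0.243). PCDHGB6 had 9.48, 52.1 and 47.8 in knockdown, against 82.2 in WT (-1.47, SE 0.93, limma adjusted p = 0.198), with KD 1 far below KD 2 and KD 3. PCDHGC4 had 26.5, 40.4 and 11.1 in knockdown, against 51.1 in WT (-1.12, SE 0.72, limma adjusted p = 0.205). PCDHGC5 had 5.69, 9.32 and 4.45 in knockdown, against 22.2 in WT (-1.69, SE 0.67, limma adjusted p = 0.0626). All knockdown values of these 4 genes lay below WT, so a missing call does not show equal levels.

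The remaining uncalled genes PCDHGA1, PCDHGA7, PCDHGA10, PCDHGA11 and PCDHGB1 had limma adjusted p-values of 0.537, 0.0629, 0.0665, 0.0648 and 0.119. PCDHGA1 overlapped between groups, with 13.3, 15.5 and 22.2 normalized counts in knockdown and 22.2 in WT. PCDHGA2, singled out after its values were seen as the gene with all knockdown libraries above WT, had 3.79, 9.32 and 11.1 in knockdown, against 2.22 (2 reads) in WT. It was under the filter, and the wild-type level was 0.277 of the knockdown level with an interval of 0.00652 to 1.84, so a difference was not detectable at this depth. PCDHGA3 had 1.90, 3.11 and 0 in knockdown and 0 in WT, and PCDHGA12 had 5.69, 7.77 and 2.22 in knockdown and 15.5 in WT.

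PCDHGC3 (chr5:141475947-141512979) was the most abundant member. It had 514, 611 and 625 normalized counts in KD 1, KD 2 and KD 3, against 558 in WT. KD 1 lay below WT and KD 2 and KD 3 above it, and the log2 difference was 0.06 (SE 0.16, limma adjusted p = 0.749), turning to -0.50 (limma adjusted p = 0.0366) when libraries were scaled to equal totals. Relative to the median of all tested genes, which was -0.28 as deposited and -0.91 with equal totals, PCDHGC3 was 0.34 and 0.41 higher. Many of these genes had low counts. When only genes averaging 50 or more normalized counts were tested, the median as deposited was 0.21, above the 0.06 of PCDHGC3. The median of the 19 tested gamma genes differed from that of all genes by -1.46 as deposited and -1.39 with equal totals. As deposited the gamma median was -1.74, near the -1.61 of all genes with a mean of 10 to 100. The tested gamma genes other than PCDHGC3 lie in that range.

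PCDHGC3 made up 59.2% of gamma reads in KD 1 (542 of 915), 59.9% in KD 2 (786 of 1313) and 60.2% in KD 3 (562 of 933), against 31.2% in WT (502 of 1609). The exact 95% intervals were 54.6 to 63.8%, 56.0 to 63.7% and 55.7 to 64.8% in knockdown and 28 to 34.5% in WT, so the knockdown libraries lay together and apart from WT. A share within the cluster does not depend on the scaling of the libraries. Without PCDHGC3, left out here after its values were seen, gamma genes summed to 354, 410 and 412 normalized counts in knockdown, against 1230 in WT.

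**Figure D4:**
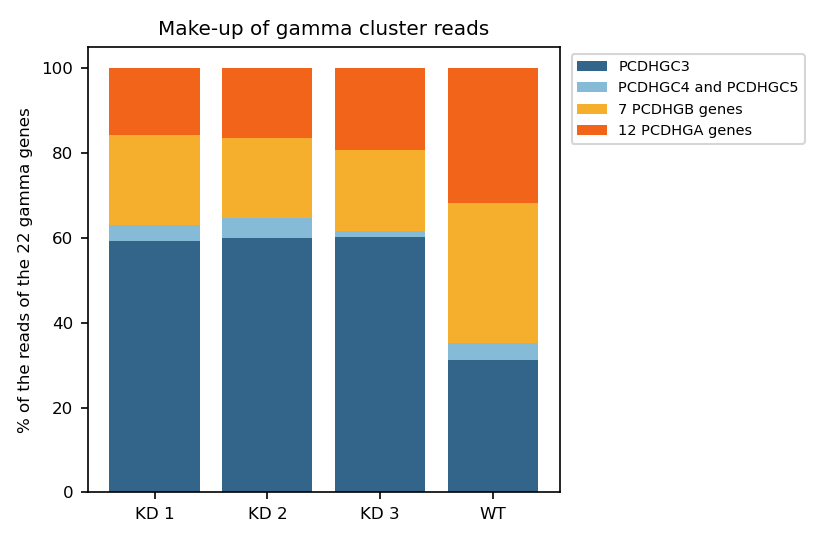
Share of gamma cluster reads (y axis, percent) that belonged to PCDHGC3, to PCDHGC4 and PCDHGC5 together, to the 7 PCDHGB genes and to the 12 PCDHGA genes, for KD 1 to 3 and WT (x axis). PCDHGC3 takes 59.2 to 60.2% in the knockdown libraries and 31.2% in WT.

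Per kb of unshared exonic bases, the level of PCDHGC3 was 179 normalized counts as the knockdown mean and 172 in WT. Among the other members, PCDHGB4 was highest in knockdown, with 21.4 per kb in knockdown and 31.6 in WT, and PCDHGB2 was highest in WT, with 14.6 in knockdown and 55.8 in WT. The highest alpha level was that of PCDHA4, with 1.69 per kb in knockdown and 16.6 in WT. Over each cluster the median level per kb was 0.183 in knockdown and 3.81 in WT for alpha genes, 0.877 and 7.05 for beta genes in knockdown and WT, and 5.58 and 17.1 for gamma genes in knockdown and WT. Clusters thus had the same order of medians in both groups, with gamma highest and alpha lowest. The alpha median in knockdown is the value of PCDHAC2, which had 2, 0 and 0 reads in KD 1, KD 2 and KD 3. It lies under the floor of 3 read pairs, so its size was not resolved.

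The 15 minus-strand genes within the span of the clusters held 2149, 2298 and 1904 reads in knockdown and 1088 in WT, nearly all in TAF7, a subunit of the general transcription factor TFIID. The 14 other minus-strand genes held 0, 0 and 5 reads in knockdown and 11 in WT. The sources used here do not give the strand setting of the authors' counting. The gamma pseudogenes PCDHGB8P and PCDHGB9P passed the filter through WT, so that they had to differ. They had 6, 2 and 10 reads in knockdown against 57 in WT (limma adjusted p = 0.017) and 2, 4 and 6 in knockdown against 26 in WT (limma adjusted p = 0.0219). The beta pseudogenes PCDHB17P, PCDHB18P and PCDHB19P had no reads.

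Genes that flank the clusters on 5q31 differed in both directions. Of 28 flanking genes 26 were tested, and 14 rose and 9 fell, while over all tested genes 31.4% rose and 36.3% fell. The median log2 difference of the flanking genes was 0.38, which became -0.18 with equal library totals. ZMAT2, a splicing factor gene beside the alpha cluster, rose to 8539, 7336 and 8482 normalized counts in knockdown, against 2441 in WT (log2 difference 1.73, SE 0.12, limma adjusted p = 8.76e-05). TAF7 lies between the beta and gamma clusters, and rose to 2037, 1786 and 2111 in knockdown, against 1196 in WT (0.72, limma adjusted p = 0.00281, and 0.16 with adjusted p = 0.14 under equal totals). DIAPH1, an actin-nucleating formin gene beyond the gamma cluster, had 14491, 14632 and 15895 in knockdown, against 10777 in WT (0.48, limma adjusted p = 0.01, turning to -0.09 under equal totals). SLC25A2, a mitochondrial ornithine carrier gene in the same span, was under the filter with 0, 0 and 4 reads in knockdown and 4 in WT. APBB3 and ANKHD1 fell (-2.32 and -1.81, limma adjusted p = 0.000631 and 0.000559).

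Among 31 genes for CTCF, cohesin, its loaders and the DNA methylation and chromatin factors that act on these promoters, 22 rose and 7 fell, and the median log2 difference was 0.64. With equal totals 10 rose and 12 fell, with a median of 0.08, and with TMM or median-of-ratios scaling 23 rose and 0 fell. Relative to the median of all genes, the list's median was 0.92 as deposited, 0.99 with equal totals, 0.91 with TMM and 0.89 with median-of-ratios scaling. The median of all genes includes many low genes, whereas the genes of this list are well expressed. Among all genes with a mean of at least 50 the median as deposited was 0.21, and 45.4% rose and 32.5% fell. How much of the list's difference goes with expression level was not tested. CTCF had 5072, 4908 and 5688 normalized counts in knockdown, against 3199 in WT (0.70, SE 0.12, limma adjusted p = 0.00227, and 0.14 with adjusted p = 0.138 under equal totals). The cohesin subunit gene RAD21 had 19052, 18062 and 19973 in knockdown, against 6459 in WT (1.56, SE 0.11, limma adjusted p = 9.63e-05), and STAG2 and SMC3, for further subunits, rose by 1.66 and 1.4 on the log2 scale. Not all cohesin genes moved this way. The subunit gene SMC1A was not called (0.15, limma adjusted p = 0.252). STAG1, for another subunit, and the loader gene NIPBL rose by 0.34 and 0.28, and the loader gene MAU2 fell (-0.39). SMCHD1, whose product silences clustered protocadherins in mice, had 16727, 15758 and 15965 in knockdown, against 9074 in WT (0.83, SE 0.11, limma adjusted p = 0.000793). The methyltransferase gene DNMT3B had 1702, 1559 and 1752 in knockdown, against 1326 in WT (0.33, limma adjusted p = 0.0348), turning to -0.23 under equal totals, and its adjusted p was 0.104 without KD 1, 0.0741 without KD 3 and 0.0909 without the filter.

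Of 17 genes for proteins that cleave protocadherins or signal from them, 16 were tested, 9 rose and 4 fell. Their median log2 difference was 0.53, which became -0.03 under equal totals. Over all tested genes 31.4% rose and 36.3% fell, or 19.4% and 52.7% under equal totals. CTNNB1, for beta-catenin, and NCKAP1 and ABI1, for subunits of the WAVE actin regulator, rose by 1.12, 1.25 and 1.39 on the log2 scale. PSEN2, for a gamma-secretase subunit, fell by 1.5 on that scale (limma adjusted p = 0.00545). Among 19 non-clustered protocadherin and related genes 17 were tested, and 4 rose and 7 fell, with a median of -0.06. Under equal totals 3 rose and 10 fell (median -0.62), and under TMM scaling 5 rose and 5 fell (median 0.17). PCDH18, PCDH15 and PCDH19 rose by 1.65, 1.58 and 1.57, and PCDH12, which also lies on 5q31, fell by 2.21, again on the log2 scale (limma adjusted p = 0.00119). Among 23 cadherins 13 were tested, and 3 rose and 5 fell (median -0.37), against 2 and 10 of 15 under equal totals (median -1.62). CDH2, for N-cadherin, had 10986, 11604 and 12938 in knockdown, against 6233 in WT (0.92, limma adjusted p = 0.000976), whereas CDH13 had 0, 0 and 2.22 in knockdown, against 161 in WT (limma adjusted p = 0.00119).

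**Figure D5:**
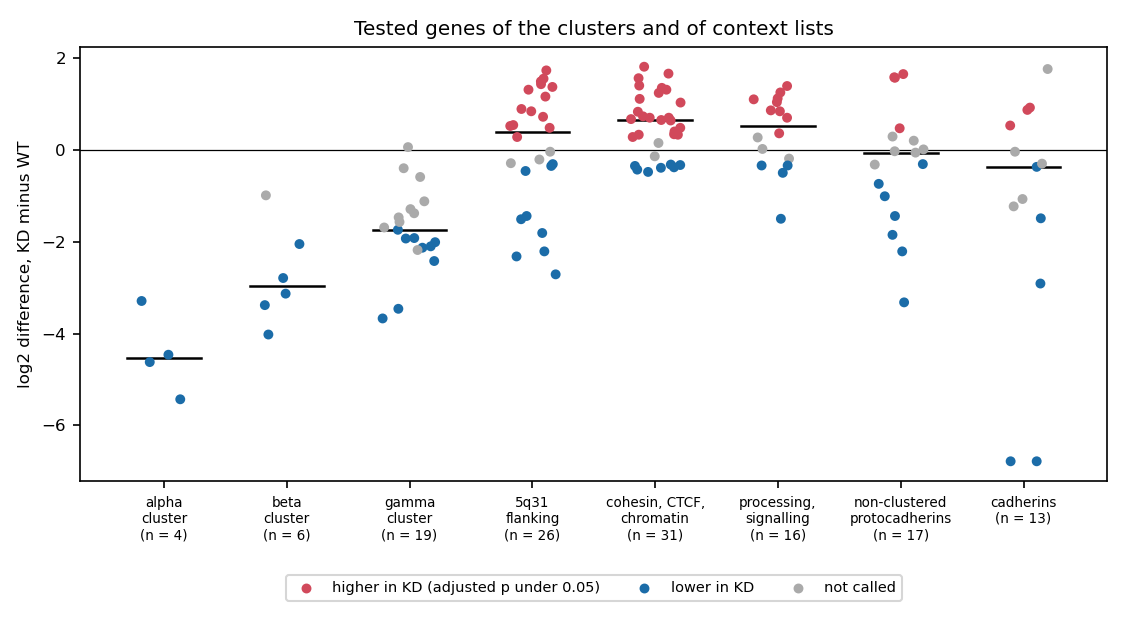
Log2 difference between knockdown and WT (y axis) of each tested gene of the alpha, beta and gamma clusters and of 5 context lists (x axis, with the number tested), coloured by call, with a black line at each median. The clusters hold no gene called higher, whereas the 5q31 flanking genes and the CTCF, cohesin and chromatin genes have medians of 0.38 and 0.64.

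In each list of markers of other cell types, more genes fell than rose. The glial sum was nevertheless higher in every knockdown library than in WT. Over all tested genes 36.3% fell and 31.4% rose. For those with a mean of 10 to 100, 49.5% fell and 6.33% rose. Of 22 neuronal markers 12 were tested, 2 rose and 6 fell, and their sums were 2986, 2559 and 3630 normalized counts in knockdown and 4800 in WT. NEUROD6, a neuronal transcription factor gene, had 0 in knockdown and 2374 of the 4800 in WT, so the higher wild-type sum rests on this gene. ELAVL4, GAD2 and STMN4 were at 0 in WT. Glial markers (9 of 13 tested, 2 rose and 5 fell) summed to 8527, 8881 and 9232 in knockdown and 7526 in WT, with MOG at 0 in WT. Leukocyte and erythroid markers (13 of 15 tested, 12 fell) summed to 437, 403 and 447 in knockdown and 16231 in WT, most of it from HBB in WT. Fibroblast markers (10 of 12 tested, 4 fell) summed to 702, 759 and 797 in knockdown and 1964 in WT, with DCN at 0 in WT. Their part in the protocadherin result was not tested. All 17 ovarian and epithelial markers had reads in every library, with 11 higher and 4 lower. MAL2 and FOLR1 rose by 2.23 and 1.8 on the log2 scale. MUC16, the CA125 antigen gene, had 26757, 35345 and 24678 in knockdown and 458890 in WT, and PAX8 had 18322, 19970 and 21361 in knockdown and 62685 in WT.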

How the data were processed

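Gene-level RNA-seq values of 3 knockdown libraries and 1 wild-type library were used. The tools named, per the submitters' processing notes, are featureCounts 2.0.6, STAR 2.7.11b and DESeq2, with the build hg38. The authors deposited signal values per gene (normalized read counts), which were whole multiples of 1 step per library in 100% of values (tolerance 0.001 reads). The reads were recovered from them, with factors of 1.0551, 1.2869 and 0.8995 for KD 1, KD 2 and KD 3 and 0.9003 for WT. The sources used here do not state how the authors obtained the factors, which annotation release they counted on or how they handled reads shared between genes.

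The main test was limma-trend 3.58.1 in R 4.3.3 on log2(value + 1), KD minus WT, over 23344 genes (mean of 10 or more normalized counts), which understates the differences of low genes. edgeR 4.0.16 (quasi-likelihood) and DESeq2 1.42.0 ran on the recovered counts as alternatives, with other pseudocounts, filters and scalings, thinned knockdown reads and each knockdown library left out. The fits were tested on simulated data. Exact intervals (conditional binomial for ratios, Clopper-Pearson for shares, 95%) used read pairs. Exons came from GENCODE 29, where 92.9% of all gene identifiers and 54 of 54 members were found by identifier without version.

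The members and lists were chosen with earlier results of these data known. Named were, per cluster and direction, the 5 tested members with the highest mean, the C-type genes, the genes with most reads, and per context list up to 4 called genes with the largest difference and at least 100 normalized counts, with CTCF, RAD21, SMCHD1, DNMT3B, ZMAT2, TAF7, SLC25A2 and DIAPH1. Further members, and the cohesin and loader genes SMC1A, STAG1, NIPBL and MAU2, were named for completeness.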

Additional observations from a re-analysis of the deposited data

How the results depend on the processing

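No paired analysis was possible because the 1 wild-type library carries no set number. WT could not be left out for the same lack of a second library. No alternative called any member higher. The members called lower (4 alpha, 5 beta and 9 gamma) were 7 alpha and 5 gamma without the filter, and 1 alpha, 0 beta and 1 gamma with a mean of at least 50, where fewer genes were tested. They were 9 beta and 14 gamma with equal library totals, and 15 gamma in edgeR's quasi-likelihood test on read pairs, an alternative chosen after seeing the data. Of all genes tested, 22.3% fell without the filter, 32.5% with a mean of at least 50, 52.7% with equal totals and 41.6% in the test on read pairs. Leaving out each knockdown library gave 2 to 5 alpha, 5 to 8 beta and 7 to 10 gamma members, with 2 alpha without KD 2 and 8 beta without KD 3. With KD 1, KD 2 or KD 3 left out, 29.8%, 30.0% and 33.2% of all genes tested fell. The log2 ratios of summed counts (-4.03 alpha, -2.85 beta and -0.87 gamma) became -4.59, -3.42 and -1.44 with equal totals, and gamma -0.64 with TMM and -0.60 with median-of-ratios scaling. Without 1 knockdown library they were -4.27 to -3.87 for alpha, -2.96 to -2.69 for beta and -0.92 to -0.80 for gamma. Signs turned with equal totals for PCDHGC3 (-0.50), DNMT3B (-0.23) and DIAPH1 (-0.09). Equal totals also moved the split of all genes to 4705 higher and 12763 lower, from 7329 and 8465, and TMM to 8643 and 6781. The called CTCF, cohesin and chromatin genes (29) were 19 without the filter and 18 to 25 without 1 knockdown library (18 without KD 1). Called non-clustered protocadherins were 6 without the filter, called glial markers 4 with a mean of at least 50, and called cluster pseudogenes 0 under either filter change, 1 in DESeq2 and 1 with TMM and with median-of-ratios scaling, and 1 to 2 without 1 knockdown library. For single genes, 923 values kept direction and call, 28 lost the call, 19 gained it and 3 changed sign; the cause was not tested. Low depth limits the alpha and beta genes, most of which had under 10 reads in each knockdown library.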
